A study of Mus musculus with 3 samples.

Results

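Peaks at the ends of genes were examined in chromatin immunoprecipitation sequencing (ChIP-seq) of Seh1, a nucleoporin of the Nup107-160 complex, in mouse neural stem cells. A peak is a stretch of genome where a peak caller found more reads in a library than in its control. The members were all peaks whose centre the authors' annotation placed at a transcription termination site (TTS) or in a 3′ untranslated region (3′ UTR), and whose centre lay over 1000 bp from any annotated transcription start site (TSS). The Seh1 list held 305 such peaks among 16113, of which 157 were in the TTS class and 148 in the 3′ UTR class. The list of the control antibody held 101 among 5314, of which 50 were in the TTS class and 51 in the 3′ UTR class. Together they were 406 of 21427 peaks.

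The cells were primary cultures from wild-type newborn mouse cortex, kept in growth medium with EGF and bFGF at 20 ng/ml each, and 3 libraries of them were described. These were a Seh1 immunoprecipitation, an immunoprecipitation with IgG (an antibody with no chromatin target, which shows where peaks arise without one) and an input of unprecipitated chromatin, whose own values were not analysed here. Genotype, medium and fixation were shared by all groups, and each group was a single library, which leaves every value without a replicate error. Peak lists hold no expression values, so the labelled cell type could not be checked against its markers. The deposited score was 0 for every peak, which leaves the depth and the height of each peak unknown.

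The end of a protein-coding transcript is made by cutting the nascent RNA and adding a poly(A) tail, after which RNA polymerase II runs on for some distance before it leaves the template. The 3′ UTR is the part of the last exon or exons beyond the stop codon and carries sites that set the stability, translation and location of the mRNA. In many genes it overlaps or lies close to the end or the start of a neighbour, so that a peak there can be assigned to more than 1 gene. HOMER, the annotation tool, by default calls a peak TTS when its centre lies from 100 bp before to 1 kb beyond the end of a transcript, and that transcript can differ from the one with the nearest TSS. Both genes are therefore given below: the gene of the annotated transcript, called the annotated gene, and the gene of the nearest TSS.

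The distance rule removed 9 Seh1 and 2 IgG peaks of these classes, all of the TTS class. Of the 9 Seh1 peaks, 5 were at ends of microRNA genes (Mir101a, Mir6339, Mir7016, Mir7119 and Mir8113), which are so short that their end lies close to their start, and others were at the small nucleolar RNA genes Snord15b and Snord116l1. Both IgG peaks were at microRNA genes, Mir101c and Mir1951. The members just inside the limit were at Ppp1r14bl (1301 bp from a TSS) and Olfr1362 (1450 bp) in the Seh1 list, and at Vmn1r250 (1059 bp) and Olfr93 (1186 bp) in the IgG list. Just outside were Seh1 peaks at Mir6339 (968 bp) and Speer8-ps1 (367 bp) and IgG peaks at Mir1951 (756 bp) and Mir101c (717 bp). A mir-101 gene was thus left out on each side. The Seh1 peak, chr4:101346744-101347083, spanned the mature miR-101a sequences, and the IgG peak, chr9:3037825-3038227, lay beyond the 3′ end of Mir101c. The related mature sequences of the genes are shown to let them be compared (RefSeq, GRCm38.p6; capitals mark the seed, bases 2 to 8). That of miR-101a-3p lies inside the Seh1 peak, and that of miR-101c lies outside the IgG peak.
mmu-miR-101a-3p: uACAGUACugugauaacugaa
mmu-miR-101c: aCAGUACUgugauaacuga
The sequence of miR-101c is contained in that of miR-101a-3p and starts at its base 2, so the capitals fall on stretches set off by 1 base.

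How often peaks lay at gene ends did not differ detectably between the lists. They made up 1.89% of Seh1 peaks (95% exact binomial interval 1.69 to 2.12%) and 1.90% of IgG peaks (1.55 to 2.30%). The ratio of the shares, Seh1 over IgG, was 0.996 with a 95% interval from 0.797 to 1.24, and two-sided Fisher's exact test gave an adjusted p of 0.954. The TTS class held 0.974% of Seh1 and 0.941% of IgG peaks (ratio 1.04, 0.754 to 1.42), and the 3′ UTR class held 0.919% and 0.960% (ratio 0.957, 0.697 to 1.31). Fisher's exact test again gave 0.954 as the adjusted p of each. The intervals of the ratios allow differences up to their bounds, so these values do not show that the shares are equal. The p-values compare these lists and not antibodies in general, and they are too small where neighbouring peaks are not independent. Intervals cover counting error only.

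**Figure D1:**
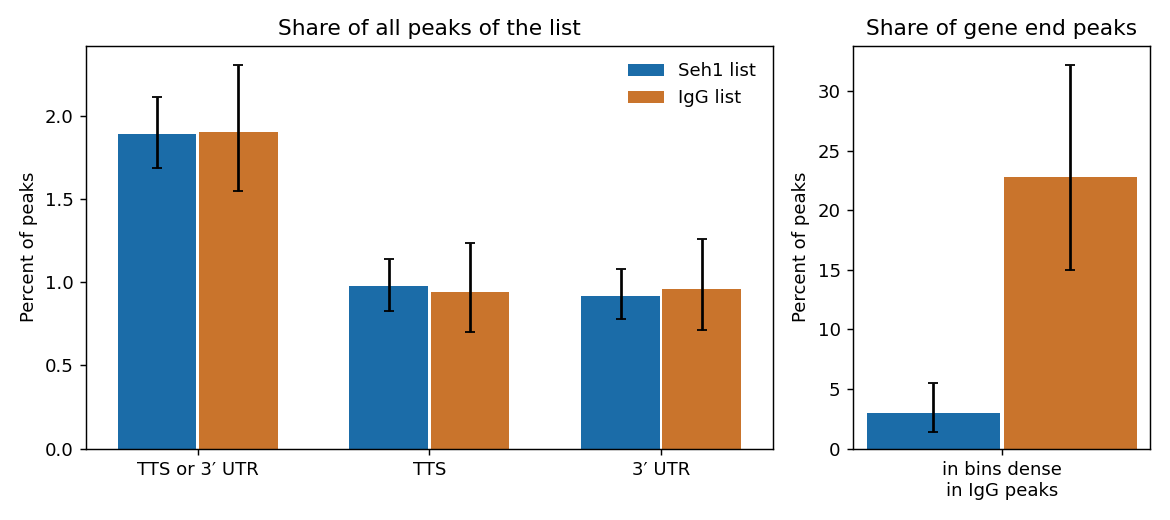
Percent of peaks at gene ends (left, of all peaks of the list, by class) and percent of gene end peaks in megabase bins with at least 20 IgG peaks (right), for the Seh1 and IgG lists. Bars are shares of 1 library each and error bars are 95% exact binomial intervals. The left bars overlap within their intervals (1.89% and 1.90% for both classes together). The right bars stand at 2.95% for Seh1 and 22.8% for IgG, against 1.93% and 11.8% of all peaks of each list. The bins were chosen by their IgG peaks, which favours a higher share for IgG.

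Most members belonged to protein-coding genes. The annotated transcript of 304 of the 305 Seh1 members matched a RefSeq gene, and 281 of these (92.4%, 88.9 to 95.1%) were on protein-coding genes, 21 on long non-coding RNA genes and 2 on transcribed pseudogenes. In the IgG list 96 of 101 (95.0%, 88.8 to 98.4%) were on protein-coding genes. Fisher's exact test of this difference had an adjusted p of 0.954. Over all peaks with an annotated transcript, mostly in introns, the share on protein-coding genes was 93.3% for Seh1 and 92.9% for IgG. The Seh1 members fell on 273 distinct protein-coding genes, 1.25% of the 21779 in the table, and the IgG members on 87, or 0.399%. Host genes tended to be long. Their median length was 37.4 kb for Seh1 (n = 272) and 43.2 kb for IgG (n = 83), against 19.6 kb for all protein-coding genes over 1 kb. No such length was computed for genes with peaks elsewhere, so it is not read as particular to peaks at gene ends.

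Of the Seh1 host genes that are protein-coding, 99 of 272 (36.4%, 30.7 to 42.4%) held at least 1 further Seh1 peak elsewhere in the gene, and for IgG this was 21 of 83 (25.3%, 16.4 to 36.0%). Other gene end peaks of the same gene were not counted as further peaks. Gene end peaks aside, most genes with a peak at the end thus had no other peak of the same list inside them. The Seh1 list is longer (16113 against 5314 peaks), and no such share was computed for other genes. The shares are therefore not compared between the lists or read as particular to these genes. The nearest other peak of the list was at a median of 30.0 kb from a Seh1 member and 37.7 kb from any Seh1 peak. For IgG it was 105 kb for members and 112 kb for all. The median Seh1 member had 12 protein-coding genes within 500 kb, against 8 for all Seh1 peaks, and the IgG medians were 8 and 5. The members were chosen for lying at genes, so these medians are a description.

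The widest 3′ UTR members of the Seh1 list were led by a peak of 1114 bp in the last exon of Sgsm1, a modulator of small GTPase signalling (chr5:113244031-113245144, exon 16 of 16 of NM_001309528). Its centre lay 1.37 kb upstream of the gene's 3′ end, and the nearest TSS was that of Tmem211, a gene on the opposite strand, 17.7 kb away. No other 3′ UTR member came near this width. The next were in Sectm1b, which encodes a small secreted and transmembrane protein of immune cells (690 bp, chr11:121053743-121054432), and in Txndc9, a thioredoxin domain protein gene (689 bp, chr1:37985998-37986686). Coa5, an assembly factor of cytochrome c oxidase, held a peak of 543 bp (chr1:37418045-37418587). Aff3, a nuclear protein gene of the AF4 family, held a peak of 499 bp whose nearest TSS was that of Gm5099. Wwc2, of the Hippo pathway's Kibra family, held 482 bp, with Cldn22 as the gene of the nearest TSS. The remaining ones were Il18r1, a receptor subunit for interleukin 18 (473 bp, nearest TSS Il18rap), Gm15319 and Gm21083 (450 bp each) and Tbcel, a tubulin cofactor gene (440 bp, nearest TSS Tecta). In 5 of these 10 the annotated gene was also the gene of the nearest TSS, and in the other 5 the nearest TSS named another gene.

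In the TTS class the widest Seh1 member spanned 606 bp beyond the long non-coding RNA gene 9130221F21Rik (chr6:72013207-72013812), followed by 592 bp at 4930432M17Rik. Kcnj6, which encodes a G-protein-gated potassium channel subunit, held 519 bp (chr16:94821587-94822105), at the end of its transcript NM_001025590, which lies 76.9 kb inside the far end of the gene. Etv6, a transcriptional repressor of the ETS family, held 513 bp (chr6:134270257-134270769), centred 355 bp beyond the gene end. The nearest TSS to it was 126 kb away, that of Bcl2l14. Cibar1, a gene of primary cilia, held 512 bp (nearest TSS Rbm12b1), and Smad4, the common mediator of TGF-beta and BMP signals, held 492 bp (nearest TSS Mex3c). Further down were Rbmx2, an RNA-binding protein gene (448 bp), Cab39, which encodes a scaffold of the kinase LKB1 (444 bp, nearest TSS Itm2c), and Gtf3c4, a subunit gene of the RNA polymerase III factor TFIIIC (406 bp). Gm21119, with 530 bp, completes these 10 and is taken up below with the regions that the IgG list shares.

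Widths of the rest were narrow. The median Seh1 member was 270 bp wide (quartiles 244 and 312), close to the 266 bp of all Seh1 peaks, and 76 of 305 (24.9%) had the minimum width of 243 bp, against 27.2% of all Seh1 peaks. In the IgG list the median member was 298 bp wide (quartiles 236 and 376), against 266 bp for all, and 34 of 101 (33.7%) had the minimum of 236 bp, against 38.0% of all. The IgG members were spread more widely at the upper end, with 3 of the 5 widest TTS members at zinc finger genes: Zfp534 (744 bp), Zfp981 (725 bp) and Zfp991 (683 bp). The others were Mucl2, a mucin-like gene (875 bp), and Gm21190 (703 bp).

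**Figure D2:**
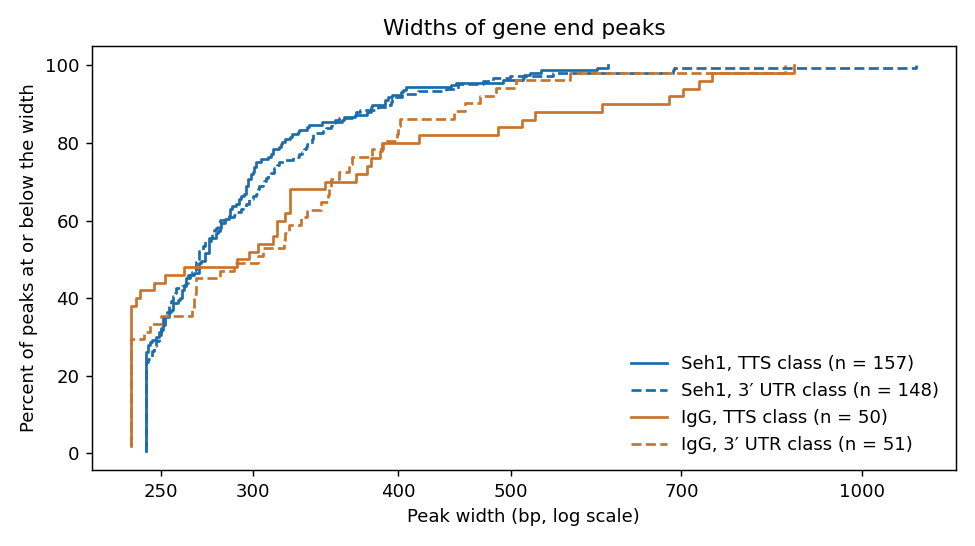
Cumulative distribution of the width of gene end peaks (x axis, bp on a log scale; y axis, percent of peaks at or below that width), by list (colour) and class (solid, TTS; dashed, 3′ UTR). The vertical rise at the left of each curve is the minimum width of the list, 243 bp for Seh1 and 236 bp for IgG, and the longest member is the 1114 bp Seh1 peak.

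Where peaks sat around the gene end was measured for 276 Seh1 and 95 IgG members, those with a known strand that lay on the RefSeq position of their gene. Distances run from the peak centre to the 3′ end of the gene. Seh1 centres were few right at the end: 24 of 276 (8.70%, 5.65 to 12.7%) lay within 250 bp of it on either side, and 56 (20.3%, 15.7 to 25.5%) lay 250 to 500 bp from it. Inside the end the counts were 8 and 20. Beyond the end they were 16 and 36. For IgG the pooled counts were alike, with 20 of 95 (21.1%, 13.4 to 30.6%) within 250 bp and 19 (20.0%, 12.5 to 29.5%) from 250 to 500 bp. Inside the end the IgG counts were 14 up to 250 bp and 10 from 250 to 500 bp, and beyond it they were 6 up to 250 bp and 9 from 250 to 500 bp. Beyond the end both lists thus had the lower count next to it, and inside the end only the Seh1 list did. This pattern was noticed in the data, and the difference between the lists was not tested. Without the megabase bins dense in IgG peaks the shares within 250 bp were 8.18% for Seh1 and 17.6% for IgG.

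The Seh1 members of the TTS class were most numerous in the farthest 250 bp of the window in which the class is defined. Of the 143 with a measured position, 129 lay from 100 bp before to 1 kb beyond the gene end, at a median of 542 bp beyond it. Of these, 4 lay before the end, 16 up to 250 bp beyond, 36 from 250 to 500 bp, 30 from 500 to 750 bp and 43 (33.3%, 25.3 to 42.2%) from 750 to 1000 bp. The 40 IgG members in the same window were spread as 6, 6, 9, 11 and 8 (20.0%, 9.05 to 35.6%, in the last step), at a median of 434 bp. The intervals of the last step overlap, and neither the spread within the window nor the difference between the lists was tested. The TTS members nearest to an end were at Zfp667 and Zfp773, both zinc finger genes (22 bp before and 31 bp beyond), Pgam2, the muscle phosphoglycerate mutase gene (57 bp beyond), and, before the end, Zfp992 (66.5 bp) and the retinol dehydrogenase gene Rdh9 (68.5 bp). IgG members came as close at Speer4e (25.5 bp before), Lrrtm3, a synaptic adhesion gene (46.5 bp beyond), Zfp981 (47 bp before), Gm21190 (50 bp beyond) and Stt3b, an oligosaccharyltransferase gene (66 bp beyond).

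Peaks of the 3′ UTR class lay in the last exon of the annotated transcript in all 148 Seh1 and all 51 IgG members. Where the annotated gene also had the nearest TSS, the median Seh1 centre was 1.13 kb upstream of the gene end (n = 61) and the median IgG centre 1.28 kb (n = 25). With all members of known position the order turned, at 1.32 kb for Seh1 (quartiles 663 bp and 2.47 kb, n = 133) and 684.5 bp for IgG (376 bp and 1.76 kb, n = 49), so no order of the medians is read from these values. Of all with a known position, 53 of 133 Seh1 members (39.8%, 31.5 to 48.7%) and 28 of 49 IgG members (57.1%, 42.2 to 71.2%) lay within 1000 bp of the end. The intervals overlap, and the difference was not tested. Among the Seh1 members nearest to the end were those of Sirt6, a chromatin deacetylase gene (119 bp upstream), Kat14, an acetyltransferase gene of the ATAC complex (163 bp), the endosomal GTPase gene Rab7 (164 bp) and Pde6d, which encodes a carrier of prenylated proteins (272.5 bp). In the IgG list they were Sec24a (144 bp), Serinc3 (161 bp), Larp4 (168.5 bp), Zfp982 (182 bp) and C2cd5 (193.5 bp).

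**Figure D3:**
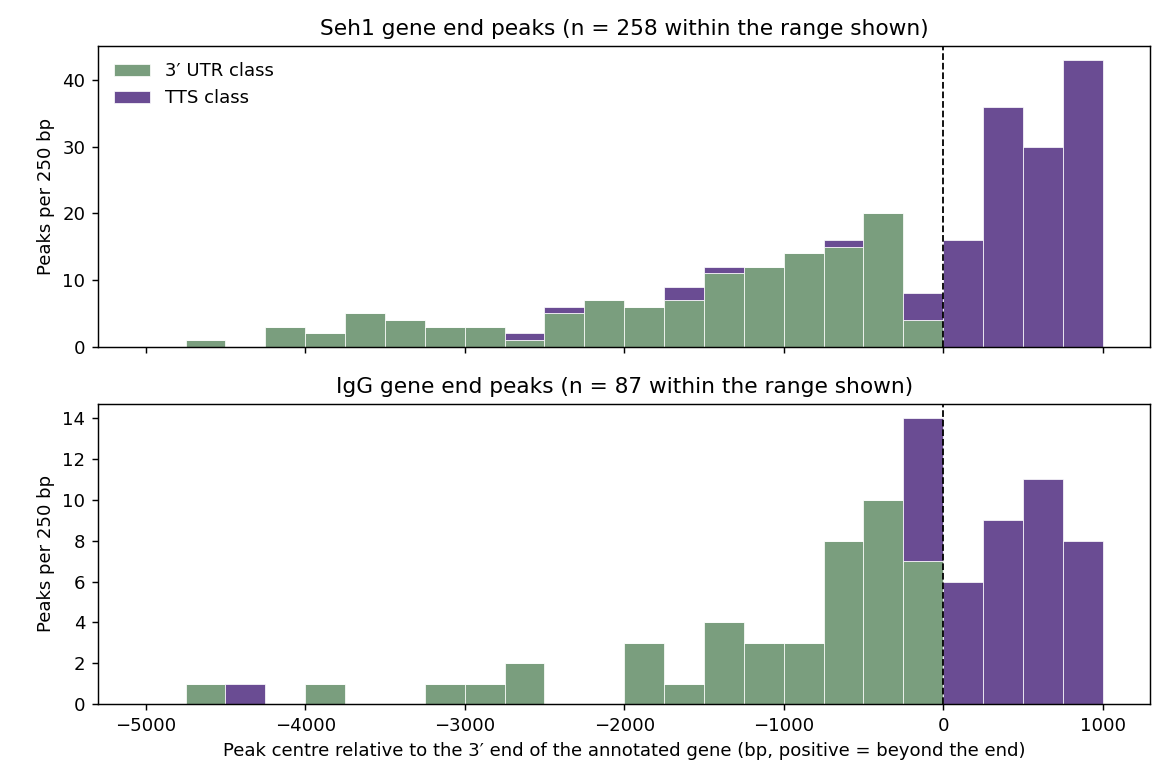
Number of gene end peaks per 250 bp (y axis) by position of the peak centre relative to the 3′ end of the annotated gene (x axis, bp, positive beyond the end), for 258 Seh1 (top) and 87 IgG (bottom) peaks between 5 kb inside and 1 kb beyond the end; colours give the class and the dashed line is the gene end. The TTS class is bounded at 1 kb by its definition. Seh1 counts are low on both sides of the line (8 and 16), next to 20 and 36 in the neighbouring steps.

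Some members lay far inside the RefSeq gene. Among TTS members, 14 of 143 Seh1 and 6 of 46 IgG centres lay more than 100 bp inside the far end of the RefSeq gene, and among 3′ UTR members 10 of 133 and 4 of 49 lay more than 5 kb inside it. By the default window of their class, these TTS centres lay at the end of the annotated transcript, short of the end of the RefSeq gene. Whether the 3′ UTR centres lay at an earlier transcript end or in a long last exon was not tested. The longest of these distances was at Ntrk2, the gene of the BDNF receptor TrkB, which is expressed as a full-length and as a shortened receptor that lacks the kinase domain. Its Seh1 peak (257 bp, chr13:58933835-58934091) was in exon 13 of 13 of NM_008745, at 200 kb inside the gene end. Others were at Vps13d, a lipid transfer protein gene (101 kb), Kcnj6 (76.9 kb), Cngb1, a channel subunit gene of rod photoreceptors (51.8 kb), and Opa1, which acts in fusion of mitochondria (11.2 kb). In the IgG list they included Larp1b (61.0 kb), Nectin3 (48.2 kb) and Ptprz1 (47.5 kb). Apart from Ntrk2, Kcnj6 and Ptprz1, which the naming rule gives, these genes were chosen after their values were seen.

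About as many members shared their gene with the nearest TSS as did not. In the Seh1 list 151 of 304 (49.7%, 43.9 to 55.4%) had the same gene in both, and in the IgG list 53 of 101 (52.5%, 42.3 to 62.5%) (Fisher's exact test, adjusted p = 0.954). Over all peaks with an annotated transcript the 2 genes were the same in 67.2% for Seh1 and 71.5% for IgG. By class, the gene was the same in 87 of 156 Seh1 TTS members (55.8%, 47.6 to 63.7%) and in 64 of 148 Seh1 3′ UTR members (43.2%, 35.1 to 51.6%). Of the 153 Seh1 members with another gene, 61 lay upstream of the start of a neighbour on the same strand, either inside the annotated gene or beyond its end. Another 57 had a neighbour on the opposite strand that started upstream of the peak, so that both genes ran towards it. Smaller groups of 6 and 4 had other layouts, and for 25 a strand was missing. The corresponding IgG counts were 18, 17, 4, 6 and 3 of 48.

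Single genes show these layouts. Mcm10, a replication initiation factor gene, faced Ucma, with a peak of 273 bp in the last of its 20 exons (chr2:4991103-4991375). Stat2, a mediator of interferon signalling, faced Il23a, with a peak of 272 bp centred 290.5 bp inside the end of Stat2. Rfc4, a clamp loader subunit gene, had a TTS peak of 263 bp that the nearest TSS would give to the small nucleolar RNA gene Snora81, 2.64 kb away. Where both genes were the same, examples were Vegfa, which encodes an angiogenic growth factor (302 bp, 830.5 bp beyond the end), Wif1, a secreted inhibitor of Wnt (301 bp, 190 bp beyond), Gdf11, a TGF-beta family ligand (243 bp, 93 bp beyond) and Xrcc5, a DNA end-joining gene (270 bp, 417.5 bp beyond). These 7 genes were chosen for their known roles after their values were seen.

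Genes with more than 1 member were few. In the Seh1 list they were 8: Tollip, an inhibitor of Toll-like receptor signalling, Zfp704, Grhl2, an epithelial transcription factor gene, Pfkfb3, a regulator of glycolysis, Map3k9, a kinase of the JNK pathway, Sectm1b, 4930467E23Rik and Gm21119. The distance between the centres was 619.5 bp in Tollip, 670 bp in Zfp704, 740 bp in Grhl2, 1.11 kb in Pfkfb3, 1.48 kb in Sectm1b and 4.47 kb in Map3k9. Whether such neighbouring peaks are separate sites was not tested. In the IgG list Zfp980 and Zfp981 had 3 members each, within 1.79 and 1.69 kb, and Adamts12, an extracellular protease gene, Gm15319, Gm21119, Rex2 and Tmem267 had 2 each. The 2 IgG members given to Gm21119 lay 579 kb apart, further than the 32346 bp that the RefSeq gene spans, so their gene is uncertain.

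Of the gene lists, which hold genes of neural stem cells, neurons, glia, other cell types of brain, the cell cycle, p53, the nuclear pore, 3′ end processing and chromatin repression, 7 of 317 genes had a Seh1 member at their own end, and 3 had an IgG member. This is 2.21% and 0.946%, against 1.25% and 0.399% of all protein-coding genes, on counts too small to set them apart. The neural stem cell list had 1 of 45 in the Seh1 list. It was Nr2e1, the orphan nuclear receptor TLX that keeps neural stem cells proliferating, with a peak of 290 bp (chr10:42561307-42561596) centred 511.5 bp beyond the gene end. The IgG list had 2 of the 45, both known from radial glia: Slc1a3, a glutamate transporter gene (267 bp, 3′ UTR, chr15:8634335-8634601), and Ptprz1, a receptor phosphatase gene (236 bp, TTS).

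The nuclear pore and GATOR list had 1 of 36. This was Nup160, whose protein is a partner of Seh1 in the Nup107-160 complex, with a peak of the minimum width of 243 bp (chr2:90736832-90737074) at the end of NM_021512. The centre lay 2.37 kb inside the far end of the RefSeq gene and 8.61 kb upstream of the start of Fnbp4, the gene named by the nearest TSS. Cell cycle progression had 1 of 40, Mki67, the gene of the Ki-67 antigen of dividing cells, with 261 bp (chr7:135689320-135689580) centred 334 bp beyond the end. Neuronal differentiation had 2 of 42, Ntrk2 (above) and Nlgn1, a postsynaptic adhesion gene (256 bp, 557.5 bp beyond the end), for which the nearest TSS, that of Naaladl2, was 637 kb away. Chromatin repressors had 1 of 42, Dnmt3a, a de novo DNA methyltransferase gene, with 308 bp in exon 18 of 18 (chr12:3910490-3910797), 3.80 kb inside the end. Glia had 1 of 24, Mog, a myelin protein gene, with 243 bp at 772 bp beyond its end and 6.30 kb from the TSS of Zfp57.

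No p53 target or CDK inhibitor gene held a gene end peak of either list (0 of 34, which allows a share of up to 8.82%), Cdkn1a, the gene of p21, included. Limits at 0 for gene lists and families are 3 divided by the number of genes, and are not exact binomial bounds. The list of microglial, endothelial and fibroblast genes had 0 of 24 in both (up to 12.5%). The genes of mRNA 3′ end processing and termination had 0 of 30 for Seh1 (up to 10.0%). For IgG they had 1, Xrn2, the exonuclease that degrades the RNA behind a terminating polymerase, with 262 bp centred 75.5 bp before its own gene end.

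Among gene families taken by symbol, solute carrier genes had the most Seh1 members after unnamed gene models, with 10 of 389 genes (2.57%). This compares with 1.25% of all protein-coding genes and was not tested. They were split between classes, with 3′ UTR peaks in Slc4a5, Slc8a3, Slc22a8, Slc24a3, Slc24a4 and Slc38a1 and TTS peaks in Slc12a8, Slc23a4, Slc25a37 and Slc27a2. Their widths ran from 243 bp, in Slc8a3, Slc12a8 and Slc22a8, to 367 bp in Slc23a4. The IgG list had 4 of the 389 solute carrier genes (1.03%), against 0.399% of all protein-coding genes. Both lists thus stood above their own background, which was not tested for either. Olfactory and vomeronasal receptor genes had 2 of 1459 for Seh1 and 4 for IgG. Ribosomal protein (97 genes), cadherin and protocadherin (97), collagen with laminin (55) and cytochrome P450 genes (99) had none in either list. The limits at 0, in that order, were 3.09, 3.09, 5.45 and 3.03%. All lie above the 1.25% and 0.399% of all protein-coding genes, so these counts do not show an absence. Numbered zinc finger genes had 7 of 424 for Seh1 (1.65%) with 8 peaks, and 6 for IgG (1.42%) with 10 peaks. As a share of members this was 2.62% (1.14 to 5.10%) for Seh1 and 9.90% (4.85 to 17.5%) for IgG, a difference that was not tested.

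The zinc finger members of the IgG list lay together. All 10 were in bins of 1 Mb that held at least 20 IgG peaks. Of the 8 zinc finger members of the Seh1 list, 1 was. These bins held 11.8% of all IgG and 1.93% of all Seh1 peaks. They were chosen by their IgG peaks, which favours a high IgG count, so the contrast is a description. On chromosome 4 from 145 to 148 Mb, where Zfp534, Zfp980, Zfp981, Zfp982, Zfp985 and Zfp991 lie with Rex2 and Gm13034, were 13 of the 101 IgG members (12.9%, 7.04 to 21.0%) and 193 of all 5314 IgG peaks (3.63%). The same stretch held 1 of 305 Seh1 members (0.328%) and 60 of all Seh1 peaks (0.372%). The single Seh1 member there was the 392 bp peak at Zfp992, chr4:146469178-146469569. The IgG peak at Zfp991 had the TSS of Zfp992 as its nearest, and RefSeq places Zfp991 away from that peak. This stretch was singled out after its values were seen. Its zinc finger genes are related copies, whose sequences were not compared here. Reads of near-identical copies can be split or shared among them, so the gene at which a peak is placed is uncertain.

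Over all 14 dense bins, 23 IgG members (22.8%, 15.0 to 32.2%) and 9 Seh1 members (2.95%, 1.36 to 5.53%) were inside. The background was 11.8% of all IgG peaks and 1.93% of all Seh1 peaks. The bins were chosen by their IgG peaks, which favours a higher share for IgG, over all peaks as well as over members, so these shares are a description and no test of them is given.

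Seh1 and IgG members shared very few sites. Of the 305 Seh1 members, 4 overlapped an IgG peak by at least 1 bp (1.31%, 0.358 to 3.32%), against 0.372% of all Seh1 peaks. All 4 lay on chromosome 8 between 19 and 21 Mb. They were the 3′ UTR and TTS peaks of 4930467E23Rik (chr8:19752690-19753054 and chr8:19753326-19753684), of which an IgG peak of 860 bp covered the first and overlapped the second, and the 3′ UTR peaks of Gm21119 and Gm15319. These predicted genes belong to a family of related copies, whose sequences were not compared here. RefSeq places Gm21119 elsewhere on the chromosome than both Seh1 peaks given to it, so their gene is uncertain. From the other side, 3 of 101 IgG members overlapped a Seh1 peak (2.97%, 0.617 to 8.44%), against 1.13% of all IgG peaks. The 3 annotated genes with members in both lists were these same genes, and no gene outside this region had members in both.

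By chromosome, the intervals did not set the Seh1 members apart from all Seh1 peaks. The most were on chromosome 7, with 28 (9.18%, 6.19 to 13.0%), where 6.34% of all Seh1 peaks lay, and chromosome 10 held 20 (6.56%, 4.05 to 9.95%) against 4.52%. The all-peak share was inside the interval of the members in both cases. These intervals are wide, so this does not show that the shares are equal. In the IgG list chromosome 4 had the most, with 14 (13.9%, 7.79 to 22.2%), against 9.18% of all IgG peaks, and 13 of these 14 were in the zinc finger stretch.

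**Figure D4:**
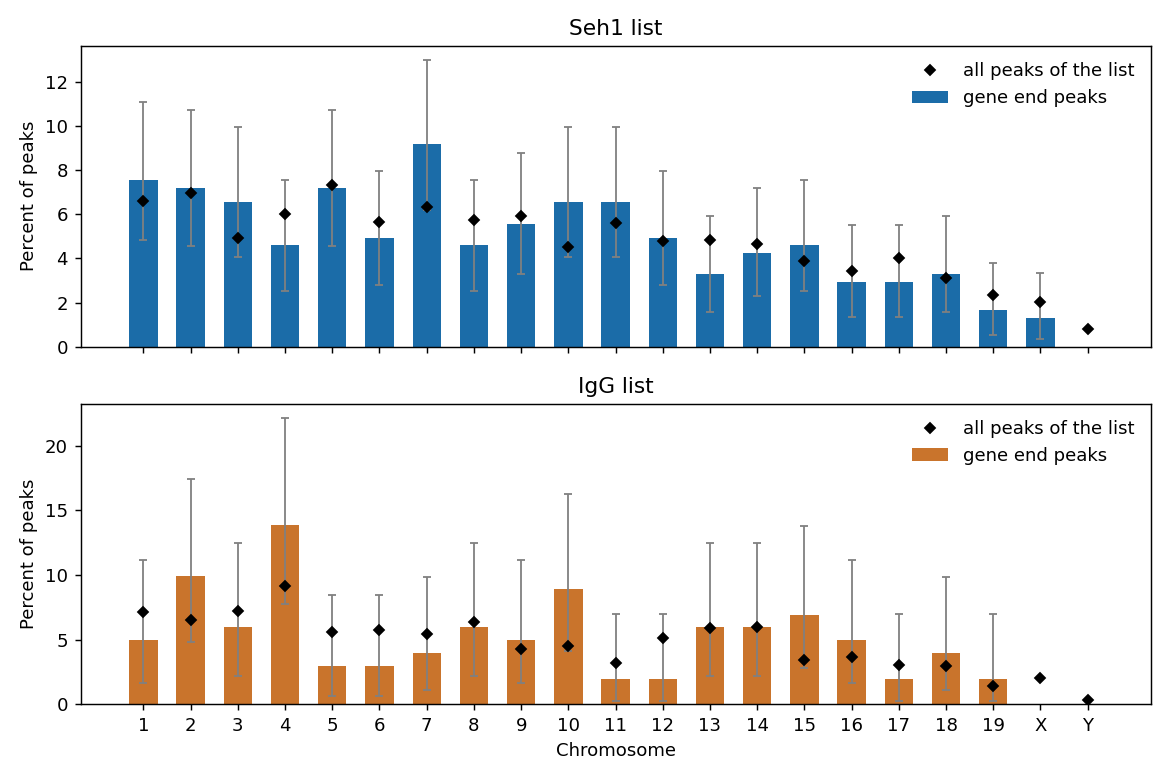
Percent of gene end peaks on each chromosome (bars, with 95% exact binomial intervals) and percent of all peaks of the same list (black diamonds), for the Seh1 (top) and IgG (bottom) lists, 1 library each. The tallest Seh1 bar is chromosome 7 (9.18%) and the tallest IgG bar chromosome 4 (13.9%); a chromosome without a bar held no gene end peak.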

How the data were processed

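Per the labels' protocols, cells were fixed in 1% formaldehyde for 10 min and chromatin was sheared by sonication. The authors annotated each library's peaks with HOMER annotatePeaks.pl against mm10, per the file headers. The submitters' processing notes name Bowtie2 and HOMER without versions and list human builds (hg18, hg38); the file headers and mouse genes give mm10, used here. The headers name the peak sets as library and input, and the IgG set also as HOMER peaks, but the caller's settings and the treatment of reads that map to several places are not stated. The deposited score is 0 for every peak, so no height or p-value could be used; positions are the deposited starts and ends.

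Transcripts were matched to genes in RefSeq's GRCm38.p6 table. Strand came from RefSeq promoter entries or, failing these, from the authors' signed TSS distances; where both existed they gave 1 strand for 6247 of 6280 genes. The 6 comparisons of shares used two-sided Fisher's exact tests with Benjamini-Hochberg adjustment at 0.05 (SciPy 1.17.1), with exact binomial (Clopper-Pearson) intervals. Fisher's test and these intervals were checked on simulated independent counts, which do not cover neighbouring peaks that are not independent. The intervals of the ratios were not checked in this way. The comparison for bins dense in IgG peaks counted in the adjustment but is given without its p, since the choice of bins favours its direction. Members, lists and tests were chosen with earlier results of these data known. Genes are named by width (the 10 widest per class for Seh1, 5 for IgG), closeness to the gene end (5 per class), several members, overlap, list membership or a differing nearest-TSS gene; exceptions are stated. A few named genes that this rule gives are not reported here.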

Additional observations from a re-analysis of the deposited data

How the results depend on the processing

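Of 35 recomputed values, 30 kept their direction and their side of the threshold or stayed inside the interval of the reported value. The other 5 were ratios of shares (Seh1 over IgG) near 1 that crossed it, without passing the test on either side. The ratio for both gene end classes, 0.996, became 1.01 with no limit on the TSS distance, 1.09 over 5 kb from a TSS and 1.13 without the dense bins. That for the 3′ UTR class, 0.957, became 1.00 over 5 kb from a TSS and 1.02 without the dense bins. The number of Seh1 members overlapping an IgG peak stayed at 4 with an overlap of 50% of the shorter peak, with centres within 1 kb and among peaks wider than the minimum. The number of IgG members at a Seh1 peak rose from 3 to 6 of 101 (5.94%) with centres within 1 kb, as the share of all IgG peaks rose from 1.13% to 2.48%. The median IgG width was 264 bp without the dense bins, in place of 298 bp. Positions relative to the gene end without the dense bins were computed after seeing the data. No paired analysis was possible because each group had 1 library. Depth is unknown, so a gene end without a peak may only lack reads.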
